A study of Mus musculus with 4 samples.

Results

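The 43 genes described here encode transcription factors that are best known for building organs other than the limb: brain and eye, spinal cord, gut, pancreas and liver, heart, kidney and gonad, and the gastrula. They were followed in chromatin of mouse limb buds, as a listed set of genes out of 21536 protein-coding genes whose start site could be located. For each gene, every accessible region in the window from 50 kb before to 50 kb after the transcription start site was taken from the 2 deposited peak lists. A region with any base within 1 kb of the start site is called a promoter region and every other region of the window a distal region. The windows held 342 of 99356 regions in the E10.5 list and 126 of 37413 in the E11.5 list, with a region in the windows of 2 members counted once.

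The study assayed chromatin of forelimbs and hindlimbs, labelled as 1 tissue, of wild-type embryos of stages E10.5 and E11.5, with 2 samples per stage and no other genotype or treatment. Cells were dissociated, fixed with formaldehyde and exposed to the Tn5 transposase, which cuts accessible DNA and inserts sequencing adaptors (ATAC-seq). The sample titles give the earlier stage as E10.5 and the dissection protocol gives it as E10, and strain, litter and the number of embryos per sample are not given in the sources used here. Each stage has 1 peak list and not 1 per sample, and how the 2 samples entered it is not given in the sources used here, so there is no spread between replicates and no test between stages: every value below describes 1 list, and differences between the lists cannot be told apart from differences in depth or in peak calling. The read depth behind each list is not given in the sources used here.

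Most of these genes belong to small families of homeobox, paired-box, basic helix-loop-helix, T-box, LIM-homeobox or GATA zinc finger factors that assign cells to a fate early in an organ's development. Their start sites usually lie in stretches rich in CG dinucleotides, which tend to be unmethylated and nucleosome-poor in many tissues, and outside their own organ such genes are commonly held silent by Polycomb group proteins rather than by DNA methylation. Accessibility at a start site is therefore not the same as transcription, and no RNA was measured here. In a dissected limb bud a regulator of another organ could also be active in a minority cell type such as nerve, blood vessel or the lining of the body wall. In a bulk sample, fewer cells of a type and less signal per cell cannot be told apart.

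The sequences below are the 250 bases before the start site, 5′ to 3′ on the gene's own strand, from RefSeq (GRCm38.p6, the mm10 build), with each CG dinucleotide in capitals. Atoh1 and Nkx6-1 are shown as members with strong promoter regions in both lists, and Pax5, Dbx1, Nkx2-1 and Pax8 as members with none in either. The stretch of Atoh1, the factor of cerebellar granule cells and inner-ear hair cells, is chr6:64728875-64729124 on the plus strand, and that of Nkx6-1, a factor of ventral spinal cord and pancreatic beta cells, is chr5:101664712-101664961 on the minus strand. The stretch of Pax5, a factor of the midbrain-hindbrain border and of B cells, is chr4:44710695-44710944, that of Dbx1, a factor of spinal interneurons, is chr7:49636836-49637085, that of Nkx2-1, a factor of ventral forebrain, thyroid and lung, is chr12:56536909-56537158, and that of Pax8, a factor of thyroid and kidney, is chr2:24475600-24475849, all on the minus strand.
Atoh1: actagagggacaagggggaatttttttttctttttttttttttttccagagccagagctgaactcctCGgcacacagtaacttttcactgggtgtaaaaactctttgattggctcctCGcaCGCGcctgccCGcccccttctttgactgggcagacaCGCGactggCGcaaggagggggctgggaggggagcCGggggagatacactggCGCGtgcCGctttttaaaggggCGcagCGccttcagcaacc
Nkx6-1: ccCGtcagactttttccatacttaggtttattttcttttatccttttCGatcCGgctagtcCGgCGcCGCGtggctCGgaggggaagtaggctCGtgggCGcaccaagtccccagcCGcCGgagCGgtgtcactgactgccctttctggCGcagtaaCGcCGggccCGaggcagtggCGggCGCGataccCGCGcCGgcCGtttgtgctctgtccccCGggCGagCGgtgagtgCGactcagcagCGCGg
Pax5: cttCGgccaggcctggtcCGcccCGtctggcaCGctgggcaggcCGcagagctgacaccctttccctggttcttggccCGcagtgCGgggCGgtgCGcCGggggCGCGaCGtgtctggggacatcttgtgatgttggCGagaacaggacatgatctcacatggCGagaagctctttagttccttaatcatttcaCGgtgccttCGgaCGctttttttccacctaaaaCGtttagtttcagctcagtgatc
Dbx1: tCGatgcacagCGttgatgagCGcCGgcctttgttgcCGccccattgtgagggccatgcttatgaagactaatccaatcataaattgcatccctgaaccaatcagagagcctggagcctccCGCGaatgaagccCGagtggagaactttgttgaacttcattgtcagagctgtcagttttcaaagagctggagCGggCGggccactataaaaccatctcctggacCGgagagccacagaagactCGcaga
Nkx2-1: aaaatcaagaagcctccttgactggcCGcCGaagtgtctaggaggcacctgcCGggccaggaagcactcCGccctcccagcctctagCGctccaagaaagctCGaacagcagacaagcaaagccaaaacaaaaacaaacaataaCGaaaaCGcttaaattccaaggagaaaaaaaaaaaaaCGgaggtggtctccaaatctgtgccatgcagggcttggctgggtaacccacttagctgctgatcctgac
Pax8: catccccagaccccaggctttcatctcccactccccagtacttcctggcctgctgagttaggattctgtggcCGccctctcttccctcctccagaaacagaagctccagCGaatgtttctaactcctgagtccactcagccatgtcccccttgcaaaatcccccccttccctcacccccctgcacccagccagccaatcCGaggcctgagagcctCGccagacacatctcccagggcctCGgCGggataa
The stretch of Nkx6-1 held 30 CG dinucleotides and that of Atoh1 held 14. Among the members without a promoter region, Pax5 held 19, Dbx1 12, Nkx2-1 9 and Pax8 6, so that Pax5 had more than Atoh1.

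Of the 43 genes, 35 had a promoter region in the E10.5 list and 22 in that of E11.5. All 22 of the later list were also in the earlier one, 13 genes had a promoter region at E10.5 only, none at E11.5 only, and 8 had none in either list. Those shares, 81.4% and 51.2%, stand beside 67.6% and 61.6% of all protein-coding genes, and 61.2% of all genes had a promoter region in both lists. The E10.5 list is the longer one, and cut to the same number of regions by signal it gave 20 of 43 members, or 46.5%, beside 61.0% of all genes. With regions of a −log10 p of at least 5 only, the counts were 21 and 13 members, or 48.8% and 30.2%, beside 63.4% and 55.6% of all genes. The members therefore stood above the background at E10.5 only when the weakest regions were counted, and below it at E11.5 in both counts.

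The value that the peak caller reports for a region, here called the signal, is a sum over the region and so grows with its width. It starts just above 200 in both lists, and its median was 838 at E10.5 and then 722 at E11.5. A percentile below is the share of the list's regions with a lower or equal signal, and is set within 1 list. The lists differ in length, so percentiles of the 2 lists are not on 1 scale. Over all genes with a promoter region, the strongest one had a median percentile of 89.4 at E10.5 and 81.6 at E11.5. Where a gene had several promoter regions, the strongest is given.

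**Figure D1:**
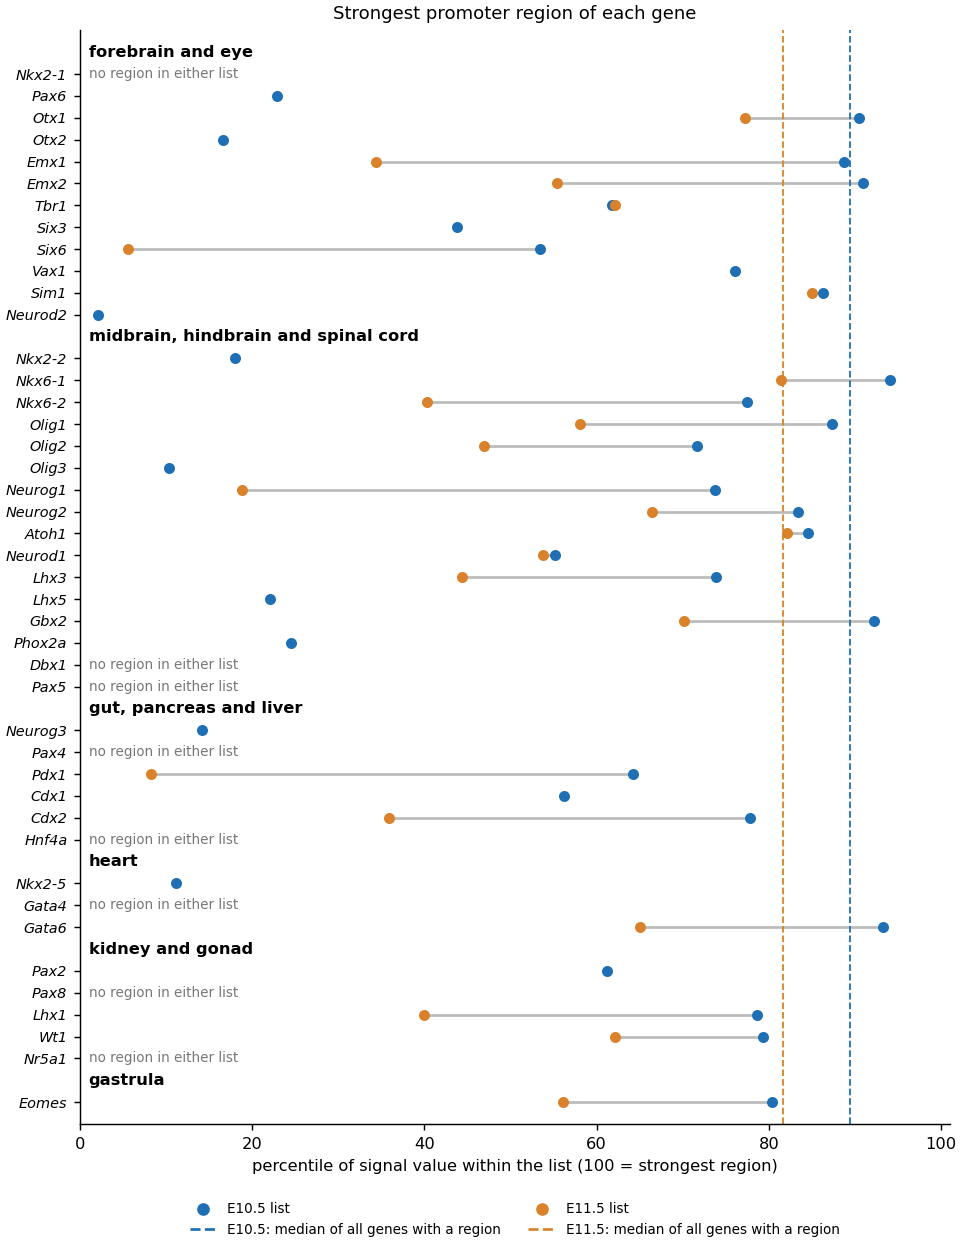
Signal percentile within its own list (x axis, percent) of the strongest promoter region of each member (y axis, ordered by organ), with 1 point for the E10.5 list and 1 for the E11.5 list. Nkx6-1 is highest at E10.5 at 94.1 and Sim1 highest at E11.5 at 85.1, and genes with no point in a list had no promoter region there.

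Among the 12 genes of forebrain and eye, 11 had a promoter region in the E10.5 list and 6 in that of E11.5. Sim1, the factor of neurons in the hypothalamus, had a signal of 3929 at E10.5 (chr10:50893858-50895375, rank 13675, percentile 86.2) and of 3566 at E11.5 (chr10:50894034-50895380, rank 5592, percentile 85.1). Its promoter region thus had nearly the same percentile in both lists, and at E11.5 it ranked above that of every other member. Otx1, a homeobox factor of forebrain and midbrain, had 5064 at E10.5 (chr11:22000074-22002355, percentile 90.4) and 2505 at E11.5 (chr11:22000437-22002390, percentile 77.2).

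The cortical homeobox genes Emx1 and Emx2 stood much lower in the later list. Emx2 had a signal of 5242 at E10.5, at percentile 91.0, and of 903 at E11.5, at percentile 55.4. At E11.5 that stretch was split into 2 regions, the weaker with 444 at percentile 34.9. Emx1 had 4573 at percentile 88.8 and then 438 at percentile 34.3. Tbr1, a T-box factor of cortical neurons born early, had 2 regions near its start site. The downstream one had 1260.4 at percentile 61.8 and then 975 at percentile 57.3. The upstream one had 2673 at E10.5 (percentile 79.4), where it lay 1.09 kb away and so counted as distal, and 1222 at E11.5 (percentile 62.1), where it was within 1 kb. Both thus had a lower percentile in the later list, which is shorter. By rank within the list the downstream one went from 37918 to 15995 and the upstream one from 20507 to 14165. The strongest promoter regions, 1260.4 and 1222, have nearly the same percentile but are not the same region. Six6, a factor of eye and pituitary, had 939 at E10.5 and then 223 at E11.5, close to the lowest signal of the list.

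The other forebrain genes had a promoter region at E10.5 only. The highest was that of Vax1, a factor of the ventral eye and optic stalk, with a signal of 2268 at percentile 76.0. Six3, which shapes the front of the forebrain, had 692, Pax6, the factor of eye and cortex, 373, Otx2, a head organiser gene, 312, and Neurod2, a factor of maturing cortical neurons, 212. Apart from Vax1 all of these were below the median of the E10.5 list, and that of Neurod2 was at percentile 2.10. Nkx2-1 had no promoter region in either list, although 4 distal regions lay in its window at E10.5 and all 4 were found again at E11.5. The strongest of them lay 1.60 kb downstream of the start site, inside the gene, with a signal of 1242 at E10.5 and then 227 at E11.5.

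Among the 16 genes of midbrain, hindbrain and spinal cord, 14 had a promoter region in the E10.5 list and 10 in that of E11.5. Nkx6-1 had the strongest promoter region of all members at E10.5, with a signal of 6608 over chr5:101662833-101665968 (rank 5836, percentile 94.1). At E11.5 it was split into 2 regions, the stronger with 3049 over chr5:101664086-101665962 (rank 6941, percentile 81.5). Its relative Nkx6-2, a factor of interneurons and oligodendrocytes, had 2430.3 at percentile 77.5 and then 519.6 at percentile 40.3. Nkx2-2, which acts beside these factors in the ventral cord, had 325 at E10.5 and no promoter region at E11.5.

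The proneural genes, which start neuron formation, mostly kept a promoter region in both lists. Atoh1 had a signal of 3559.9 at E10.5 (percentile 84.6) and of 3137 at E11.5 (percentile 82.1), the second highest among members at E11.5. Neurog2 had 3338 at percentile 83.4 and 1503 at percentile 66.5, and Neurod1 995 at percentile 55.2 and 839 at percentile 53.8. Neurog1 had 2040.2 at percentile 73.8 and then 297 at percentile 18.8. Atoh1 and Neurod1 thus had nearly the same percentile in both lists, whereas Neurog1 was in the upper part of the E10.5 list and in the lower part of the E11.5 list. The lists differ in length, so an equal percentile is not an equal rank. Ranks were 15335 and then 6682 for Atoh1, 44511 and 17298 for Neurod1, and 26079 and 30379 for Neurog1. Atoh1 also had the fewest distal regions of the 43 genes, 2 at E10.5.

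The Olig genes, factors of motor neuron and oligodendrocyte precursors, differed among themselves. Olig1 had a signal of 4193 at E10.5 and then 1008 at E11.5, and Olig2 had 1859.5 and 646. Olig3, which acts in the dorsal cord, had 264 at E10.5, at percentile 10.3, and none at E11.5. The start sites of Olig1 and Olig2 are 44.2 kb apart, so their windows share regions, including the promoter region of each. Gbx2, which sets the front of the hindbrain, had 5735 at percentile 92.2 and then 1796 at percentile 70.1, over a stretch that also holds the start site of the uncharacterised gene LOC102637806, so that its signal cannot be assigned to 1 of them. The LIM-homeobox factor Lhx3, of motor neurons and pituitary, had 2054 and 589.

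A promoter region at E10.5 only was found for Lhx5, a factor of forebrain and cord neurons, with a signal of 364, and for Phox2a, a factor of autonomic neurons, with 391. Their percentiles were 22.0 and 24.6. Phox2a had a far stronger region over the end of its gene, chr7:101820235-101824015, which began 1.92 kb downstream of the start site, ran on into the neighbouring gene Inppl1 and had a signal of 10289 at E10.5 and then 2547 at E11.5. Dbx1 and Pax5 had no promoter region in either list. Pax5 had a distal region 5.68 kb downstream of its start site, within the gene, with 4476 at E10.5 and then 1624 at E11.5 (chr4:44704199-44704859 in the later list). Of the 3 distal regions of Dbx1 at E10.5, 2 were found again at E11.5.

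Among the 6 genes of gut, pancreas and liver, 4 had a promoter region in the E10.5 list and 2 in that of E11.5. Cdx2, which directs intestinal fate, had a signal of 2477 at E10.5 (percentile 77.8) and 456 at E11.5 (percentile 35.9). Pdx1, the factor of the pancreatic bud, had 1377 at percentile 64.2 and then 236 at percentile 8.25. Cdx1, the intestinal relative of Cdx2, had 1029 at E10.5 only, and Neurog3, which starts endocrine cells of the pancreas, 293 at E10.5 only. Every one of these promoters therefore had a lower percentile in the later, shorter list or was absent from it. By rank within the list Cdx2 went from 22024 to 23985 and Pdx1 from 35531 to 34329. The median percentile over all genes with a promoter region was also lower at E11.5, 81.6 beside 89.4 at E10.5. For all members with a promoter region it was 55.7 beside 73.8. Pax4, a factor of beta cells, and Hnf4a, a nuclear receptor of liver and gut, had no promoter region in either list. The listed second start site of Hnf4a, 40.3 kb downstream, had none within 1 kb either.

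Of the 3 heart genes, Gata6 had the second strongest promoter region of the set at E10.5. Its signal was 6212 at E10.5 over chr18:11051336-11055586, at percentile 93.3, and 1399 at E11.5, at percentile 65.0. Gata6 is also a regulator of gut and endoderm. Nkx2-5, the homeobox factor of heart precursors, had 270.0 at E10.5, at percentile 11.2, and none at E11.5. Gata4, the relative of Gata6 that acts with Nkx2-5, had no region within 1 kb of the outer end of the gene, which served as its start site. A region inside the gene, chr14:63244496-63246207, began 25.5 kb downstream of it, with a signal of 2425 at E10.5 (percentile 77.4) and 719.6 at E11.5. In the older GENCODE M1 annotation, on another build, shorter Gata4 transcripts begin 26.4 kb inside the outer end. Those start sites were not used here, so the lack of a promoter region holds for the outer end only.

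Among the 5 genes of kidney and gonad, 3 had a promoter region in the E10.5 list and 2 in that of E11.5. Wt1, a zinc finger factor of kidney, gonad and the coelomic lining, had a signal of 2668 at percentile 79.3 and then 1224 at percentile 62.2. Lhx1, which forms the nephric duct and also marks limb-innervating motor neurons, had 2579 at percentile 78.6 and then 515 at percentile 40.002. Pax2, a factor of the nephric duct, had 1228 at E10.5 and none at E11.5. Pax8 and Nr5a1, the nuclear receptor of gonad and adrenal gland, had no promoter region in either list. Nr5a1 nevertheless had 10 distal regions at E10.5, of which the strongest had 4013 and lay 24.3 kb downstream. The gastrula factor Eomes, a T-box gene of early endoderm and trophoblast, had 2813 at E10.5 (percentile 80.4) and 927 at E11.5 (percentile 56.1).

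Apart from Eomes, the share of an organ group with a promoter region at E11.5 ran from 1 of 3 heart genes and 2 of 6 gut, pancreas and liver genes to 10 of 16 genes of midbrain, hindbrain and spinal cord. The groups are small, and these counts carry no test. In every organ group other than the gastrula, which has 1 gene, the count at E11.5 was below that at E10.5. The E10.5 list is the longer one, and the shares of all protein-coding genes were 67.6% and then 61.6%. With the E10.5 list cut to the length of the E11.5 list, 20 members in all had a promoter region, beside 22 at E11.5.

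The choice of start site mattered for a few genes. Pax2 has listed start sites 9.15 kb and 10.3 kb downstream of the one used, and both lay on a region of signal 5054 at E10.5 (chr19:44754634-44757670, percentile 90.4) that had no counterpart at E11.5. The longer RefSeq gene model of Nkx2-2 starts 9.03 kb upstream of the start used, and there the signal was 3047 at E10.5 (percentile 81.8) and 1250.2 at E11.5 (percentile 62.6). The second start site of Pax6, 13.6 kb downstream, had 1529.8 at E10.5 (percentile 67.0) and 269 at E11.5 (percentile 14.2). At each of these the signal exceeded that of the start site used, and Pax6 and Nkx2-2 there had a region in both lists. Counting any listed start site gave 35 and 23 members with a promoter region, and the outer end of every gene 34 and 23.

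The strongest promoter region spanned the start site itself in 24 of 35 members at E10.5, lay downstream of it in 9 and upstream in 2. At E11.5 it spanned the start site in 18 of 22. Just inside the limit of 1 kb at E10.5 was the region of Otx2, 978 bp downstream with a signal of 312, and just outside it a region 1059 bp upstream of Pax6 with 418. At E11.5 the corresponding regions were one 786 bp upstream of Atoh1, with 772, and one 1587 bp downstream of Gata6, with 781.

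Where a member had a promoter region, it stood low among promoters. At E10.5 the median percentile of the members was 73.8 (95% interval of the median from order statistics 55.2 to 79.3, n = 35 genes, range 2.10 to 94.1), and that of all genes with a promoter region was 89.4, with quartiles of 80.1 and 95.1 over 14564 genes. Above the median of all genes were 5 members, and 24 were below its first quartile. At E11.5 the median was 55.7 (40.002 to 66.5, n = 22 genes, range 5.58 to 85.1) beside 81.6 for all genes, with quartiles of 69.0 and 91.3 over 13270 genes. Here 2 members, Sim1 and Atoh1, were above the median of all genes, and 17 were below its first quartile. Both intervals take the listed genes as independent draws, although the set was fixed, and hold no spread between replicates.

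In signal, the member medians were 2040.2 at E10.5 and then 915 at E11.5, beside 4759 and 3067 for all genes. The member regions were also narrower, with median widths of 1337 bp and 882 bp beside 1498 bp and 1229 bp. Divided by width, the signal gave member median percentiles of 51.6 at E10.5 and then 26.9 at E11.5 among all regions of each list. The members counted here are those that had a region at all, so these medians describe them and not the 43.

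**Figure D2:**
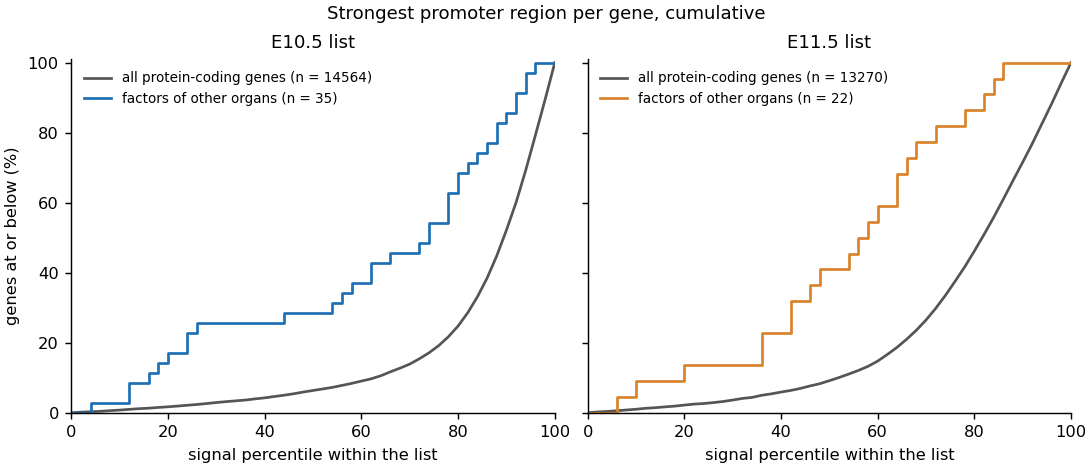
Cumulative share (y axis, percent of genes with a promoter region) against the signal percentile of the strongest promoter region within its list (x axis), for the members and for all protein-coding genes in each list. The member curves lie to the left of the curves of all genes, with medians of 73.8 against 89.4 at E10.5 and 55.7 against 81.6 at E11.5.

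Of the 46 promoter regions of members at E10.5, 24 overlapped a region of the E11.5 list by at least 1 bp, or 52.2% (95% Wilson interval 38.1% to 65.9%, counting error only), beside 86.5% of all promoter regions of that list. In the other direction all 27 promoter regions at E11.5 had an E10.5 counterpart, beside 98.8% of all. The overlap followed the signal. Of the member promoter regions up to percentile 20 of E10.5 signal and from there to percentile 40, 0 of 13 and 0 of 4 were shared, beside 18.4% and 22.8% of all promoter regions there. Up to percentile 60 it was 3 of 6 beside 45.2%, up to percentile 80 10 of 12 beside 83.4%, and above percentile 80 11 of 11 beside 99.1%. At matched signal the members' shares above percentile 40 were thus close to those of all promoters, and the low pooled share went with the number of weak regions.

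**Figure D3:**
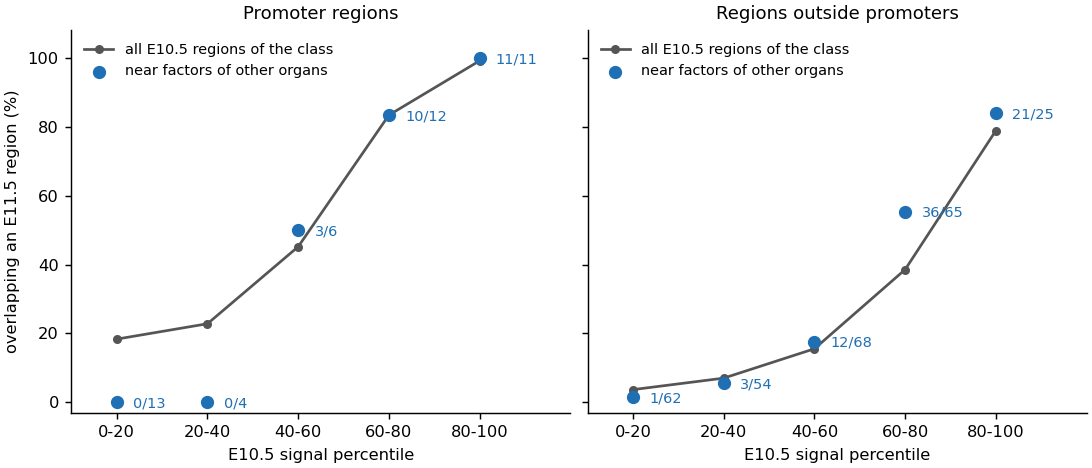
Share of E10.5 regions that overlap a region of the E11.5 list (y axis, percent) by percentile band of E10.5 signal (x axis, bands 20 percentiles wide), for promoter regions and for distal regions, members beside all regions of the class, with the counts of members written at the points. Above percentile 80, 11 of 11 member promoter regions and 21 of 25 member distal regions were shared.

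The base composition of the promoters was compared over the 34 members with a RefSeq promoter sequence, as the number of CG dinucleotides (both strands read alike) in the 300 bases from 250 before to 50 after the start site. Members had a median of 17 CG, beside 13 over 17492 promoters, and 27 of the 34 (79.4%) held at least 10, beside 57.2% of all promoters. Of those 27, 24 had a promoter region in the E10.5 list and 17 in that of E11.5, whereas 97.1% and 93.9% of all 10008 promoters with at least 10 CG had one. Thus 10 member promoters with at least 10 CG had no region at E11.5. They included Phox2a, with 30 CG and a region at E10.5 only, and Pax5, Dbx1 and Nkx2-1, with 23, 15 and 12 CG and a region in neither list. Pax5, Dbx1 and Nkx2-1 each have 1 listed start site, so the lack of a region holds for that site and the limit of 1 kb. Nkx2-1 had a region 1.60 kb downstream at E10.5 and 1.88 kb downstream at E11.5, just beyond that limit.

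Within the members the count of CG was higher where a promoter region was found in more lists. Members with a promoter region in both lists had a median of 22.5 CG (n = 18), those at E10.5 only 16 (n = 11) and those in neither list 12 (n = 5). For all promoters the same medians were 21 (n = 10697), 7 (n = 1040) and 2 (n = 5685). The members therefore differed from other genes mainly in the last 2 classes, where their promoters held more CG. Between 10 and 19 CG, 12 of 14 members had a region in the E10.5 list and 6 of 14 in that of E11.5, beside 93.5% and 88.7% of all promoters in that range. With at least 30 CG the counts were 6 of 6 and 5 of 6, beside 99.8% and 97.7%. No chance test was made of these counts, and a CG count is a description of the sequence.

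**Figure D4:**
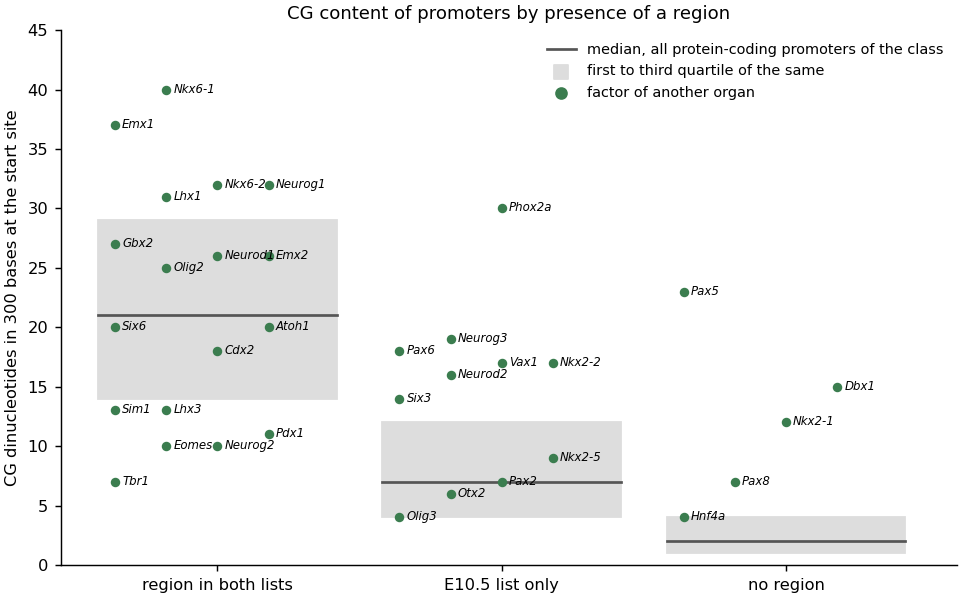
Number of CG dinucleotides in the 300 bases around the start site (y axis) for members and for all promoters, by whether a promoter region was in both lists, in the E10.5 list only or in neither (x axis). The member medians are 22.5, 16 and 12, and those of all promoters 21, 7 and 2.

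Distal regions were found in the window of all 43 genes at E10.5 and then of 39 at E11.5, beside 83.4% and 72.2% of all protein-coding genes. The windows of Otx2, Nkx6-1, Olig3 and Wt1 had none at E11.5. The median was 6 distal regions per gene at E10.5 (range 2 to 17, mean 7.33), beside a median of 4 and a mean of 5.32 over all genes. At E11.5 it was 3 (range 0 to 7, mean 2.44), beside 2 and 2.51. With the E10.5 list cut to the length of the E11.5 list the means were 2.47 for members and 2.35 for all genes, so that most of the excess at E10.5 lay in the weaker regions. With a −log10 p of at least 5 the means were 3.88 beside 3.30 at E10.5, and 1 beside 1.51 at E11.5, where the members were below all genes. No member lacked a region of any kind in both lists.

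**Figure D5:**
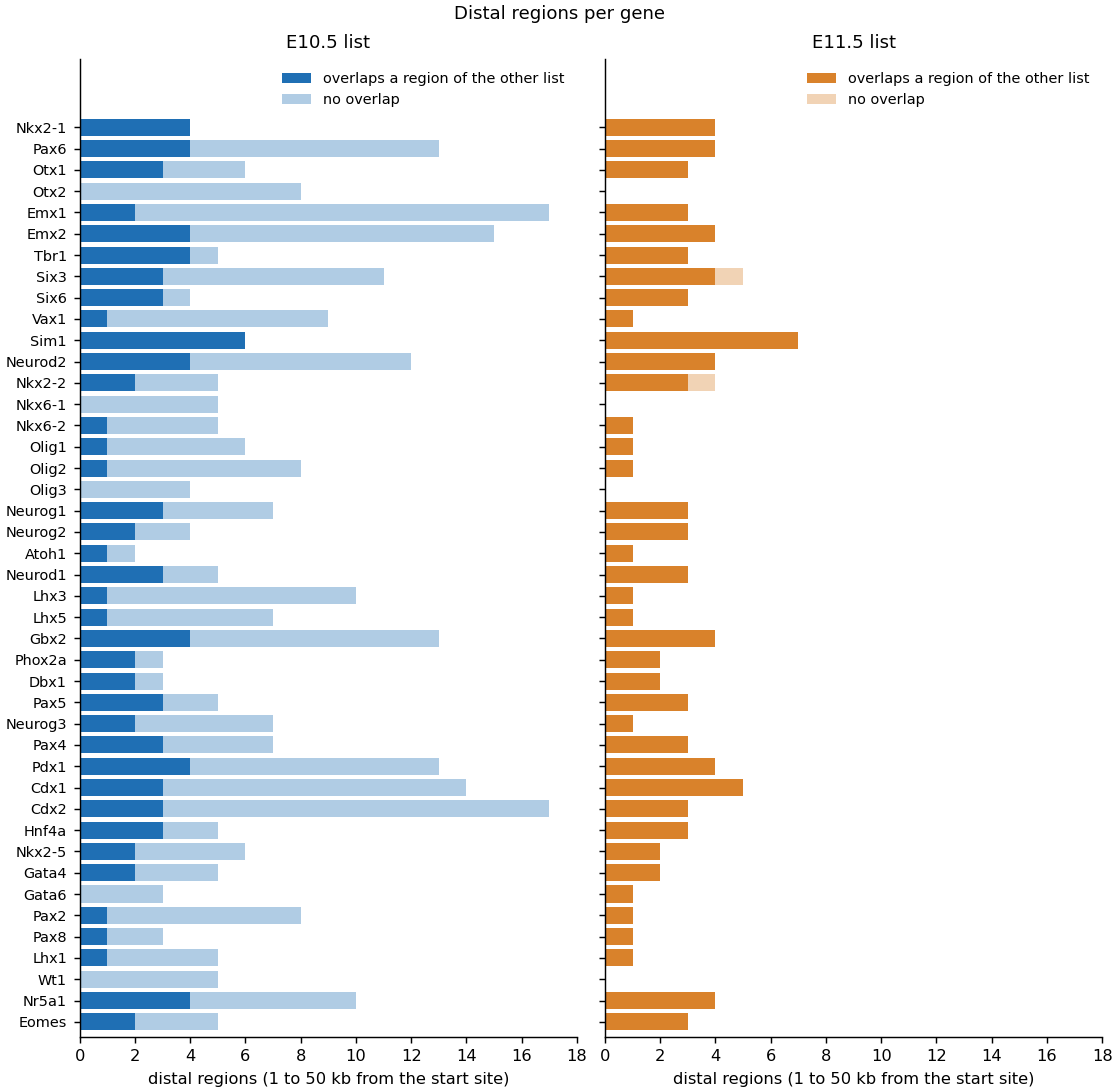
Number of distal regions within 50 kb of the start site of each member (x axis: regions per gene, y axis: genes ordered by organ) in each of the lists. Emx1 and Cdx2 have the most at E10.5, 17 each, and Sim1 has the most at E11.5, 7.

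At E10.5 the most distal regions were near Emx1 and Cdx2, with 17 each, Emx2 with 15, Cdx1 with 14, and Pax6, Gbx2 and Pdx1 with 13 each. The start sites of Pdx1 and Cdx2 are 37.2 kb apart, so that most of their regions are the same. At E11.5 Sim1 had 7, Six3 and Cdx1 5 each, and Nkx2-1, Pax6, Emx2, Neurod2, Nkx2-2, Gbx2, Pdx1 and Nr5a1 4 each. Sim1 is the one gene with more distal regions in the shorter list than in the longer. All 6 of its E10.5 regions were found again, and that 14.8 kb downstream was split into 2 regions at E11.5. Within the Sim1 gene the region 7.09 kb downstream had a signal of 544 at E10.5 and then 1012 at E11.5, and that 9.33 kb downstream 240 and 454. Emx1 was the opposite case, since 2 of its 17 regions had a counterpart at E11.5.

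Of the 296 distal regions at E10.5, 22 lay at the promoter of another protein-coding gene, and of the 99 at E11.5, 17. Of the others at E10.5, 160 lay between genes, 71 overlapped the member's own gene and 43 another gene, and at E11.5 the numbers were 44, 30 and 8. Intervals here are of counting error only and take the regions of 1 window as independent. Away from other promoters, 73 of 274 E10.5 regions (26.6%, 95% Wilson interval 21.8% to 32.2%) overlapped the E11.5 list, beside 23.1% of all regions outside promoters. Of the E11.5 regions 80 of 82 (97.6%, 91.5% to 99.3%) overlapped the E10.5 list, beside 88% of all. In the same bands of E10.5 signal, from the lowest to the highest, 1 of 62, 3 of 54, 12 of 68, 36 of 65 and 21 of 25 were shared, beside 3.70%, 7.04%, 15.6%, 38.6% and 78.9% of all such regions. The members' share was near the background in every band except that from percentile 60 to 80, where 36 of 65 stood above it, and this too was not tested.

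Several of the strongest regions in the windows belong to other genes. The strongest at E10.5, chr18:61040993-61048089 with a signal of 23957 (rank 66), began 4.79 kb upstream of the start site of Cdx1 and covered the start site of Pdgfrb, the mesenchymal receptor of platelet-derived growth factor. At E11.5 it had become 3 regions, of which that at the Pdgfrb start site had 1607. The next, with 12489 and at E11.5 5709.6, lay downstream of Phox2a at the promoter of Inppl1, a lipid phosphatase gene. Near Pax4 a region with 8524 at E10.5 and then 7213 at E11.5 (chr6:28479410-28480886) was at the promoter of Snd1, and those at Arf5 and Gcc1 had 4635 and 3784 at E11.5. Near Pax5 the promoter region of Zcchc7 had 3732 at E11.5. Of the 5 strongest regions at E11.5 all were promoters of such neighbours, so in that list the highest signals near members were not at the members.

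Away from any promoter the strongest regions were different. At E10.5 they were the region over the end of Phox2a given above and one 31.8 kb upstream of Emx1, between genes, with a signal of 8286 (chr6:85153846-85156088) and 709 in the stronger of 2 regions there at E11.5. A region 35.9 kb upstream of Neurog1, overlapping the chemokine gene Cxcl14, followed with 7967 and then 309 (chr13:56288039-56290382). At E11.5 the strongest were a pair near Tbr1, chr2:61815020-61816375, 10.6 kb downstream of its start site, and chr2:61811351-61812676, inside the gene. Their signals were 3044 and 3034, after 4320.1 and 3810.0 at E10.5. The region in Phox2a followed with 2547 (chr7:101821374-101822619). A region 7.29 kb downstream of the start site of Nkx2-2 had 1912 (chr2:147178203-147179114) after 4001 at E10.5, and one 45.4 kb upstream of Pax8 had 1729 after 2675. The Tbr1 and Pax8 regions thus kept a high place in both lists, and those of Emx1 and Neurog1 did not.

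Among distal regions above percentile 80 of E10.5 signal, 4 had no counterpart at E11.5. These were the region at the inner start sites of Pax2 given above, a second one 21.7 kb upstream of Pax2 with 3669.7 (chr19:44723502-44724873), one 7.09 kb downstream of Gbx2 with 3481 (chr1:89921495-89924087), and one 42.5 kb downstream of Neurog1 with 2909.5 (chr13:56208052-56209675). Of the 9 E10.5 regions of Pax2 in all, 1 was found again at E11.5, with 416. In the E11.5 list 2 member regions had no E10.5 counterpart: one 42.98 kb upstream of Nkx2-2 with 253 (chr2:147229383-147229619), and one 41.2 kb upstream of Six3 with 228 (chr17:85579426-85579610). Both were short and near the lowest signal of the list. At the edge of the window, the last region inside 50 kb at E10.5 was one 49701 bp from Neurog3 with 1841 and the first outside it one 50028 bp from Sim1 with 244, while at E11.5 they were one 49770 bp from Emx1 with 2394 and one 50029 bp from Neurog3 with 447.

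For comparison, 52 relatives of the same gene families outside the 43 were read in the same way. They include Tbx2, Tbx3, Tbx4, Tbx5, Lhx2 and Lhx9, which are also in the list of limb transcription factors below. Of the 52 relatives, 42 (80.8%) had a promoter region in the E10.5 list and 33 (63.5%) in that of E11.5. These shares stand beside 81.4% and 51.2% of the members and 67.6% and 61.6% of all genes. The relatives' median percentiles were 78.0 and 60.7, between the members and all genes. Promoter regions were in both lists for 32, at E10.5 only for 10, at E11.5 only for Gata1, and in neither for 9. The highest among them at E10.5 were Six5 with a signal of 22586, Tbx2 with 15899, Six4 with 14571, Atoh8 with 11118 and Tbx3 with 10275, of which Tbx2 and Tbx3 are also limb factors. At E11.5 they were Six5 with 9739, Six4 with 6364, Tbx18 with 3780.2, Gata3 with 2999.9 and Atoh8 with 2942. All 25 relatives with at least 10 CG had a promoter region in the E10.5 list and 20 in that of E11.5, beside 24 and 17 of the 27 such members.

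The labelled tissue was checked with 24 limb transcription factors, all of which had a promoter region at E10.5, at a median percentile of 98.0, and 20 at E11.5, at a median percentile of 68.5. Tbx4, Tbx5, Pitx1 and Hoxd11 had none within 1 kb at E11.5. Their windows held a median of 17 distal regions in the E10.5 list and 4.5 in that of E11.5, beside 6 and 3 for the members. The highest member at E10.5, Nkx6-1 at percentile 94.1, was below the median of the limb factors, and the lowest limb factors, Lhx2 at 65.8 and Tbx5 at 70.5, lay within the range of the members. The limb factors also stood lower in the E11.5 list than in the E10.5 list. With regions of a −log10 p of at least 5 only, 23 and then 14 of the 24 had a promoter region. The shares of all genes under that setting were 63.4% and 55.6%.

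Markers of other cells that a limb dissection can hold were read in the same way, beside the 67.6% and 61.6% of all genes given above. A promoter region was found, first in the earlier and then in the later list, for 4 and 2 of 5 endothelial genes, 3 and 5 of 5 blood genes, 6 and 5 of 6 nerve and glia genes, 5 and 3 of 5 muscle precursor genes, and 4 and 2 of 5 surface ectoderm genes. Of 5 genes of the body wall and coelomic lining 3 had one in each list, namely the member Wt1 together with Lrrn4 and Gpm6a, whereas Upk3b and Msln had none. The blood list was the one that had more promoter regions at E11.5 than at E10.5. The part of any of these cells in the regions at the members was not tested.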

How the data were processed

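ATAC-seq of wild-type mouse limbs was deposited as 1 peak list per stage, from 2 samples per stage; how these were joined is not given in the sources used here. The submitters' processing notes name cutadapt, Bowtie2, SAMtools, deepTools and Genrich and the build mm10, with no versions or parameters. The authors' deposited columns used were the signal of each peak (column 7), its −log10 p and its summit, and the score column and the q column, which holds 1 constant, were not used. Deposited peaks numbered 99427 in the E10.5 list and 37548 in that of E11.5. Of these, 99356 and 37413 on chromosomes 1 to 19, X and Y were kept, with no further filter.

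Start sites came from the RefSeq promoter table (GRCm38.p6, most upstream listed start; 17492 genes, 34 members). Otherwise the outer end of the RefSeq gene was used, with the strand from GENCODE M1 (9 members: Otx1, Olig1, Lhx5, Pax4, Cdx1, Gata4, Gata6, Wt1 and Nr5a1). In all 21536 of 21887 protein-coding genes were located. Overlap means at least 1 bp, and ranks were set within 1 list. Python 3.11.15, pandas 2.3.3, numpy 2.4.6 and scipy 1.17.1 were used. The code recovered 41 of 41 genes planted in simulated lists. Named were all members with a promoter region, those with the most distal regions (ties included) and the strongest or unmatched regions; genes without a promoter region, start-site cases and the 4 unmatched strong regions of E10.5 were added after their values were seen. The members and lists were chosen with earlier results of these data known. Alternatives covered promoter distance, window, −log10 p, list length, summits, start sites, ranking and overlap.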

Additional observations from a re-analysis of the deposited data

How the results depend on the processing

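Each stage has 1 list of unknown depth, so nothing here has a replicate check, and leaving out a replicate could not be done. No paired analysis was possible because the samples of a stage share 1 list. Of 48 alternative values over 14 settings, 28 stayed within the interval or within 1.5 times of the value reported and 20 moved. The 28 include E11.5 counts that could not change when only the E10.5 list was cut. These are 22 members, 99 distal regions, 20 limb factors and 33 relatives. With a −log10 p of at least 5, members with a promoter region were 21 in the E10.5 list and 13 in that of E11.5, distal regions 159 and 39, and the share of E11.5 regions overlapping E10.5 was 100% rather than 98.4%. With the E10.5 list cut to the length of the E11.5 list by signal, there were 20 members with an E10.5 promoter region and 100 distal regions. The overlap was then 75.2% of E10.5 regions, rather than 33.3%, and 80.2% of E11.5 regions. A window of 100 kb gave 563 and 176 distal regions and one of 25 kb 181 and 63. A reciprocal overlap of 50% gave 18.1% and 49.2%, and summits within 100 bp 25.4% and 68.3%. Ranked by signal per bp, the median percentiles were 51.6 and 26.9. Beyond these, family relatives with a promoter region at E11.5 numbered 17 with a −log10 p of at least 5. A promoter distance of 500 bp gave 32 and 22 members, and one of 2 kb 39 and 23. The settings for relatives and limb factors and the outer-end start sites were chosen after seeing the data. The fewer values under stricter settings follow from fewer regions, and the cause of the other moves was not tested.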
